A study of Mus musculus with 8 samples.

Results

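The Wnt ligands, the receptors that bind them, their secreted antagonists and the first steps of the cascade inside the cell were described in hippocampal RNA of female mice given an androgen precursor. The genes were chosen by symbol, as every Wnt and Frizzled gene, the co-receptors Lrp5 and Lrp6, the alternative receptors Ror1 and Ror2, the antagonists of the Sfrp and Dkk families and Wif1, the secretion factors Porcn and Wls, and the transducers Axin1, Axin2, Ctnnb1 and Dvl1 to Dvl3. This gave 49 of the 29442 genes in the table, namely 19 ligands, 10 Frizzled receptors, 4 co-receptors or alternative receptors, 8 secreted antagonists, 2 secretion factors and 6 cytoplasmic transducers. Frzb, also known as Sfrp3, was not matched by its symbol and is counted among the further pathway genes below. Bulk RNA-seq was carried out on 8 libraries. The mice were female C57BL/6 J animals, given in the methods as 6 to 8 weeks of age, with no transgene or deletion named in the labels. The methods do not give the age at dissection. For 21 days, 4 of the sequenced animals received dehydroepiandrosterone (DHEA, 30 mg/kg/day), an adrenal steroid from which androgens are made, and the other 4 received sesame oil, its vehicle, by subcutaneous injection. The tissue is labelled hippocampus and is described as ventral hippocampus in the methods. Per the methods, it was taken after the injections and after open field, forced swim and tail suspension tests, in both groups. Libraries are named here by the numbers of their labels: R3, R4, R7 and R11 are labelled DHEA, and R5, R9, R10 and R16 are labelled sesame oil. All directions follow these labels, and a group is called by its label. They are the reverse of the directions in the study's table of differentially expressed genes, and which of the 2 assignments holds was not tested here. For Wnt3a, the paper also reports a higher level under DHEA by qRT-PCR in additional hippocampal samples, which runs against the labels.

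Wnt proteins are secreted lipid-modified ligands. In the canonical branch a Wnt ligand joins a Frizzled receptor to Lrp5 or Lrp6, Dishevelled is recruited, the destruction complex of Axin, Apc, Gsk3 and casein kinase is held back, and beta-catenin reaches the nucleus to act with TCF and LEF factors. Other branches run through Ror and Ryk receptors or the planar cell polarity proteins. In the hippocampus the pathway is known for its part in forming the structure, in adult neurogenesis and in synapse assembly, and Wnt7a and Wnt7b are known for their action on brain vessels.

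The total count per library was 35748416 to 38038361 under DHEA and 31483772 to 35418297 under sesame oil. The groups thus did not overlap in depth (p = 0.0286 by a two-sided exact permutation test, which cannot give less for 4 against 4). At this depth 3 counts correspond to 0.0808 to 0.0952 CPM, the counts scaled to a common library total. The hippocampal label was checked against marker genes. Slc17a7, the vesicular glutamate transporter of excitatory neurons, was at 979 ± 37.2 CPM in the libraries labelled DHEA and 1045 ± 37.8 CPM in those labelled sesame oil (SD, n = 4 each). No gene of the hippocampal excitatory neuron list or of the ventral hippocampus list was at 3 counts or fewer in any library. Libraries R3 and R4 stood apart from the other 6 on the first principal component, which held 33.4% of the variance.

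Wnt3a is the member that the study chose on these libraries for qRT-PCR, so its count is not independent evidence. The pair of primers used for it is shown because the gene was close to 0 counts in the RNA-seq. Each was found in 1 transcript of 1 gene, Wnt3a, among 141767 GENCODE vM21 transcripts (GRCm38). The forward primer covers transcript bases 108 to 127 in exon 1, just inside the coding sequence, which starts at base 106. The reverse primer covers bases 188 to 169 across the junction of exons 1 and 2, so the amplicon of 81 bases spans this junction. Capitals mark the 12 bases of exon 2.
Wnt3a forward: ggctcctctcggatacctct
Wnt3a reverse: ACAGCCAAGGACcaccagat

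Wnt3a and Wnt9a are neighbours on chromosome 11, and both had an unadjusted p under 0.05 in the comparison below, Wnt3a from 5 reads or fewer per library. The 250 bases before the start site of each are printed from RefSeq (GRCm38.p6), with CG dinucleotides in capitals. The Wnt3a stretch lies at chr11:59290752-59291001 on the minus strand and the Wnt9a stretch at chr11:59306680-59306929 on the plus strand.
Wnt3a: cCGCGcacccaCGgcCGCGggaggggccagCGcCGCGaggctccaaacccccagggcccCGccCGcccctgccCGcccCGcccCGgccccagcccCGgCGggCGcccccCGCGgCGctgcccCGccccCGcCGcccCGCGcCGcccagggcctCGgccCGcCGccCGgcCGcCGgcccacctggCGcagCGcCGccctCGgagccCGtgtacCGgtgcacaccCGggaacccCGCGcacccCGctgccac
Wnt9a: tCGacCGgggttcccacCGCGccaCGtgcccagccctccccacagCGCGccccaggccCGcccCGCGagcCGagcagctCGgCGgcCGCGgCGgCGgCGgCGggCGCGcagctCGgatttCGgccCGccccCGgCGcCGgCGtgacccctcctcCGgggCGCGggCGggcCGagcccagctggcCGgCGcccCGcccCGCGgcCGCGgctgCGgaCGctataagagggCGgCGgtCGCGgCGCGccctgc
The Wnt3a stretch holds 41 CG dinucleotides and 87.6% G or C, and the Wnt9a stretch holds 48 and 84.4%. The median over 32851 promoters is 6, and 1.09% of them hold 41 or more. Neither stretch holds the TCF/LEF letters CTTTGAT or the androgen half-site AGAACA on either strand. Over the full 300 bases of the table, CTTTGAT was found in 3.73% of all promoters and in those of 2 of the 34 members with an entry, Wnt5b and Wnt11. AGAACA was found in 19.0% of all promoters and in those of 5 of the 34 members, Axin2, Dkk2, Fzd4, Wnt5b and Wnt8b.

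The levels of the members with counts ranged from 0.00167 FPKM (Wnt1) to 128 FPKM (Ctnnb1). FPKM is scaled by gene length and serves here to compare genes, as the mean ± SD of all 8 libraries. Among the ligands, Wnt7b was at 8.58 ± 0.756 FPKM, and its lowest library exceeded the highest library of every other ligand. Wnt7a followed at 3.76 ± 0.770 and Wnt4 at 3.22 ± 0.375, with ranges that overlapped. Wnt9a was at 1.99 ± 0.493, Wnt5a at 1.37 ± 0.161 and Wnt2 at 1.09 ± 0.264, and the other 13 ligands were below 1 FPKM on average. Wnt7b made up 33.4% to 39.9% of the summed ligand FPKM of a library. The summed ligand FPKM was 20.9 to 24.4 under DHEA and 22.8 to 23.9 under sesame oil (p = 0.257, two-sided exact permutation test).

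Fzd3, known for its part in axon guidance, was the most abundant Frizzled receptor at 10.9 ± 0.835 FPKM. Its lowest library lay above the highest library of each of the other Frizzled receptors. Fzd6 (3.47 ± 0.393), Fzd4 (3.31 ± 0.937), Fzd2 (2.70 ± 0.325), Fzd7 (2.67 ± 0.640) and Fzd1 (2.49 ± 0.255) came next in FPKM, and neighbours in this order overlapped. Lrp6 was at 8.99 ± 0.987 FPKM and Lrp5 at 2.51 ± 0.178, without overlap between the genes. Dkk3, a divergent Dickkopf protein, was at 105 ± 4.64 FPKM, above every other secreted antagonist in every library. The next antagonist was Sfrp1, which binds Wnt ligands, at 2.57 ± 0.824. Porcn, the enzyme that attaches the lipid to Wnt ligands, was at 22.0 ± 2.81 FPKM, and Wls, their carrier to the cell surface, at 6.70 ± 0.937. Ctnnb1, which encodes beta-catenin, was the highest of the 49 at 128 ± 6.52 FPKM. At the other end, Wnt8a had 0 counts in all 8 libraries, and Wnt1, Dkk1, Wnt3a and Wnt9b had a mean count below 10.

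**Figure D1:**
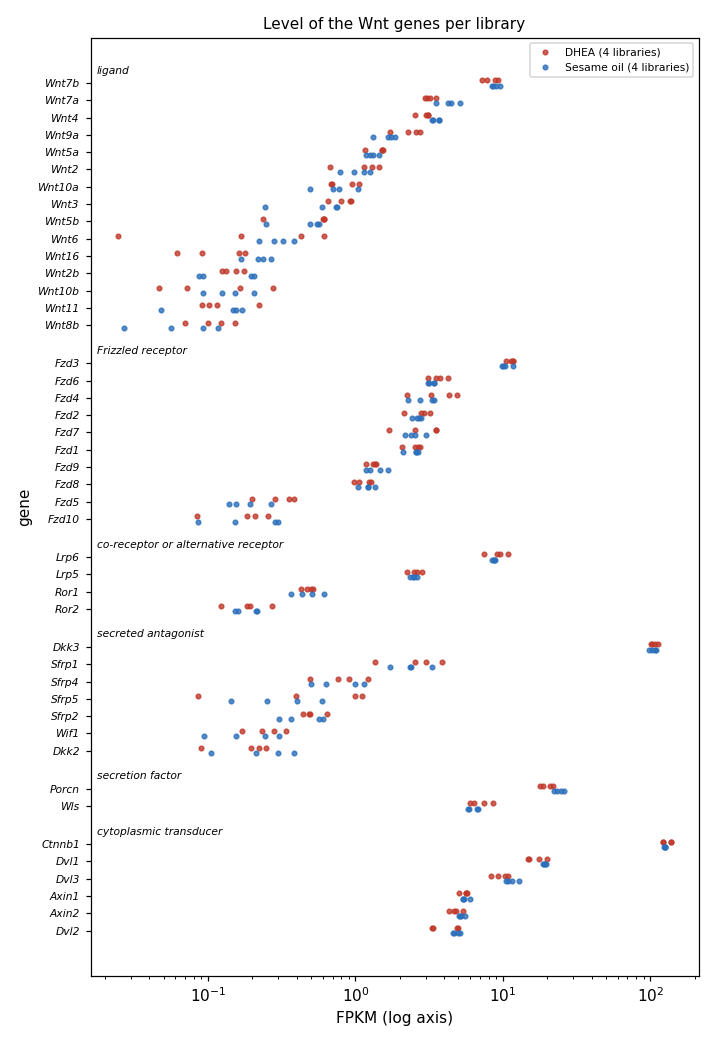
Level of the 44 members with a mean count of at least 10, grouped by role and ordered by mean level. The horizontal axis is FPKM on a log axis, and each point is 1 library of the DHEA (red) or sesame oil (blue) group. Wnt7b, Fzd3, Lrp6, Dkk3, Porcn and Ctnnb1 lead their roles, and Wnt6 and Sfrp5 spread most among the libraries labelled DHEA.

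Between the groups, few members differed beyond the spread of the libraries. All genes with at least 1 count were tested by edgeR's quasi-likelihood test, and 48 members were among them. The unadjusted p was under 0.05 for 7 of 48 (14.6%), of which 5 were lower (Wnt7a, Wnt4, Wnt3a, Porcn and Dvl3) and 2 were higher (Wnt9a and Fzd5) in the libraries labelled DHEA. Among all tested genes this share was 9.31%, with 4.49% lower and 4.82% higher. It was 13.1% among genes whose mean count reached 10, so the share of the members was close to that of expressed genes. Wnt3a passed the filter of 1 count only through the sesame oil group, so its call is not read as a difference. With filterByExpr, a stricter filter that drops it, 6 of 44 members had an unadjusted p under 0.05, 4 lower and 2 higher. No member had an adjusted p under 0.05 by edgeR, and neither did any other gene (0%). DESeq2 gave 7 members with an unadjusted p under 0.05, beside 8.22% of the 27595 genes with a p. It gave no adjusted p for 23 members, and none of the others had an adjusted p under 0.05, beside 1.21% of the 12623 genes with an adjusted p. Wnt3a alone met the thresholds of the study (unadjusted p under 0.05 with an expression ratio of 2 or more, or 0.5 or less), which 1.6% of all genes met. Its ratio was fitted over a group at 0 counts, and the ratio to 3 counts given below is 1.09-fold. A ratio of 2 was thus not shown for it. The counts depended on single libraries: without R4, 12 members (25%) had an unadjusted p under 0.05 (8 higher, 4 lower), beside 7.26% of all genes in that fit, and without R7, 11 (22.9%) had (5 higher, 6 lower), beside 13.4%. Without R3 and R4 the count was 9 (18.8%, 4 higher and 5 lower), beside 7.89% of all genes, with an unadjusted p of 0.00268 for Wnt7a, 0.00265 for Wnt9a, 0.0195 for Wnt4, 0.0298 for Fzd5, 0.0365 for Porcn, 0.0234 for Wnt3a and 0.167 for Dvl3. The shares of all genes in these reduced fits include genes with few counts. With all 8 libraries that share was 9.31%, against 13.1% among genes whose mean count reached 10. The median log2 fold change of the 48 was 0.06, beside 0.01 for all tested genes, with 32 members above and 16 below 0.

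The ranges of the groups did not overlap for 3 of 48 members (6.25%), Porcn, Wnt4 and Wnt3a, each lower in every library labelled DHEA than in any library labelled sesame oil. This was found for 5.04% of all tested genes, 2.62% in this direction and 2.42% in the other. For Wnt3a the gap is 1 read in R10 against 0 in the libraries labelled DHEA. It was tested only through the sesame oil group, so its gap is not read as a difference, and Porcn and Wnt4 remain. Leaving out 1 library, which by construction leaves less to overlap, gave 3 to 7 such members, with 7 (14.6%) when R7 was left out, 6 (12.5%) without R3, R4, R9 or R11 and 5 (10.6%) without R16. The share of all genes was then 10.7% without R7, 7.25%, 7.38%, 8.49% and 9.2% without R3, R4, R9 and R11, and 7.94% without R16. The libraries also differed in their trend with GC content. The Spearman correlation across genes between log2 CPM deviation and GC content was -0.159 to -0.0103 under DHEA and 0.0729 to 0.184 under sesame oil, without overlap. The median GC content of the members was 54.7%, beside 49.2% for all genes with a value. With this trend removed, 6 of 48 members (12.5%) had an unadjusted p under 0.05, 4 lower and 2 higher, beside 8.6% of all genes, 4.64% lower and 3.97% higher. The groups of 2 members, Porcn and Wnt3a, then did not overlap, beside 4.65% of all genes. For Wnt3a this again rests on 1 read in R10.

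**Figure D2:**
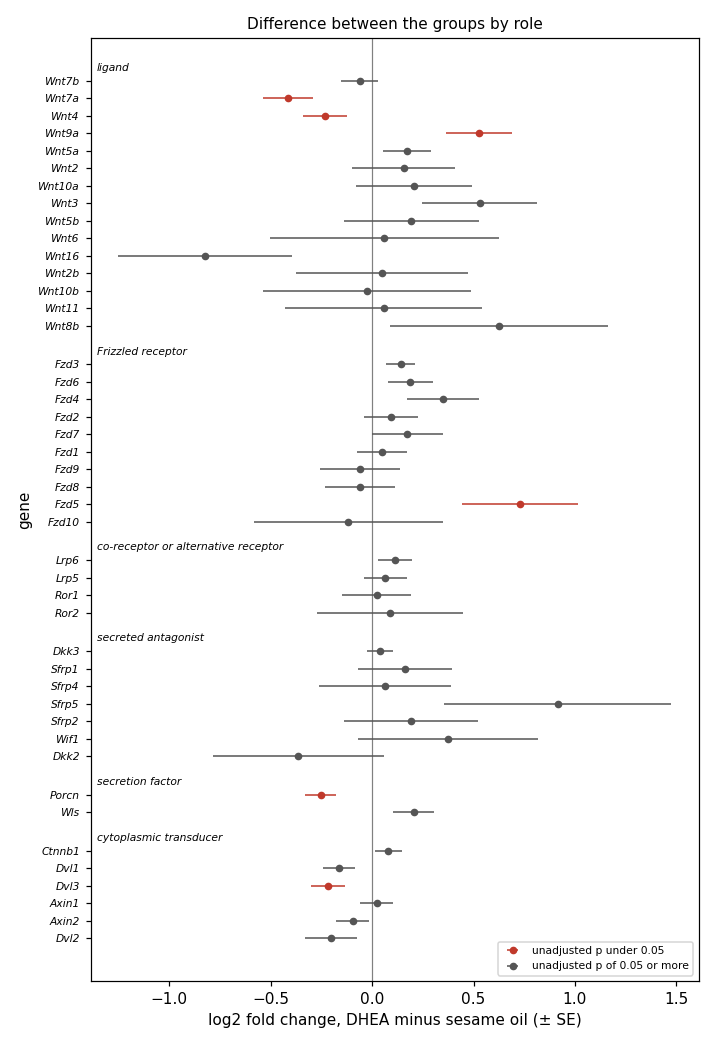
Difference between the groups for the 44 members with a mean count of at least 10, by role. The horizontal axis is the log2 fold change of edgeR, DHEA minus sesame oil, and bars are ± SE. The members in red had an unadjusted p under 0.05, and none passed after adjustment over all genes.

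Of the 18 ligands tested, 3 were lower and 1 was higher at an unadjusted p under 0.05, counting Wnt3a, which had reads in the sesame oil group only. That is 22.2%, beside 9.31% of all tested genes and 13.1% of those whose mean count reached 10. Wnt7a, a ligand of synapse assembly and brain vessels, was at 10.5, 11.8, 9.46 and 9.80 CPM in R3, R4, R7 and R11, and at 16.3, 11.1, 14.4 and 13.7 CPM in R5, R9, R10 and R16. R9 lay within the range of the libraries labelled DHEA, and the other 3 labelled sesame oil lay above it. The difference was -0.42 ± 0.13 (log2 fold change ± SE), or 25.0% lower, with an unadjusted p of 0.00391 and an adjusted p = 0.296 in edgeR. It kept an unadjusted p under 0.05 with each of the 8 libraries left out. In bulk tissue, fewer cells of a type and less RNA per cell cannot be told apart.

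Wnt7b, its closest paralog and the most abundant ligand, was at 40.0, 42.5, 34.2 and 31.7 CPM in R3, R4, R7 and R11 and at 36.8, 37.1, 39.1 and 42.0 CPM in R5, R9, R10 and R16. The groups overlapped, and the difference was -0.06 ± 0.09 with an unadjusted p of 0.505. Without R3 and R4, the highest libraries of the DHEA group, it was -0.24 with an unadjusted p of 0.00887, and without R11 it was 0.01 with an unadjusted p of 0.942. The ratio of Wnt7b to Wnt7a in FPKM was 2.37 to 2.78 under DHEA and 1.65 to 2.44 under sesame oil. This difference missed the threshold (p = 0.0571, two-sided exact permutation test). Reck and Adgra2, which form the vessel receptor for both ligands, differed by 0.15 ± 0.11 and -0.08 ± 0.13, with unadjusted p of 0.192 and 0.551.

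Wnt4, known for its part in the female gonad and the kidney, was at 11.7, 12.2, 9.68 and 11.7 CPM in R3, R4, R7 and R11 and at 13.9, 12.6, 12.6 and 14.1 CPM in R5, R9, R10 and R16. The groups did not overlap, but the gap between R4 and the lowest library labelled sesame oil was small. The difference was -0.23 ± 0.11, or 14.8% lower, with an unadjusted p of 0.0483 and an adjusted p = 0.531 in edgeR. With 1 library left out, the unadjusted p was under 0.05 in 1 of the 8 fits (without R4), with differences of -0.28 to -0.16. With the GC trend removed the difference was -0.20, close to the value before, with an unadjusted p of 0.0831.

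Wnt9a, known from joint formation, was at 5.98, 9.03, 9.24 and 7.66 CPM in R3, R4, R7 and R11 and at 4.41, 6.17, 5.89 and 5.68 CPM in R5, R9, R10 and R16. R3 lay among the libraries labelled sesame oil, and the other 3 labelled DHEA lay above them. The difference was 0.53 ± 0.16, or 44.0% higher, with an unadjusted p of 0.00435 and an adjusted p = 0.304 in edgeR. It kept an unadjusted p under 0.05 with each library left out and with the GC trend removed.

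Its neighbour Wnt3a, a canonical ligand without which the hippocampus does not form, had 0 counts in R3, R4, R7 and R11, and 4, 5, 1 and 2 counts in R5, R9, R10 and R16. A library thus held at most 5 reads of it. Taken as exact, the mean of 0.0901 CPM in the libraries labelled sesame oil was 1.09 times a level of 3 counts per library labelled DHEA. The counting error of this mean was not included, so 1.09 is not read as a smallest difference. Without R9 the same ratio was 0.857, so that no difference could be bounded. The unadjusted p was 0.00403 and the adjusted p = 0.297 in edgeR. At this depth Wnt3a was close to the limit of detection in both groups. No other neighbouring pair of members (Wnt6 and Wnt10a, Wnt9b and Wnt3, Wnt10b and Wnt1) had an unadjusted p under 0.05 in either gene.

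The other 13 ligands with counts were not separated by the test, with log2 fold changes of -0.82 ± 0.43 (Wnt16, unadjusted p of 0.0717) to 0.63 ± 0.54 (Wnt8b, unadjusted p of 0.258) among those with a mean count of at least 10. Wnt3, a canonical ligand, had a difference of 0.53 ± 0.28 with an unadjusted p of 0.0776. R16, labelled sesame oil, held 0.825 CPM of it, and the other 7 held 1.99 to 3.16 CPM. Wnt5a, the best known ligand of the non-canonical branch, differed by 0.17 ± 0.12 with an unadjusted p of 0.168.

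Of the secretion factors, Porcn was at 35.5, 37.2, 42.1 and 40.2 CPM in R3, R4, R7 and R11 and at 44.3, 47.0, 50.2 and 43.2 CPM in R5, R9, R10 and R16. Every library labelled DHEA lay below every library labelled sesame oil, with R7 and R16 nearest to each other. The difference was -0.25 ± 0.08, or 16.1% lower, with an unadjusted p of 0.0041 and an adjusted p = 0.297 in edgeR. It kept an unadjusted p under 0.05 with each library left out, and with the GC trend removed (unadjusted p of 0.00743). Wls, by contrast, was at 41.5 ± 6.93 CPM in the libraries labelled DHEA and 36.0 ± 3.07 CPM in those labelled sesame oil (SD, n = 4 each), and its difference of 0.20 ± 0.10 had an unadjusted p of 0.0589.

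**Figure D3:**
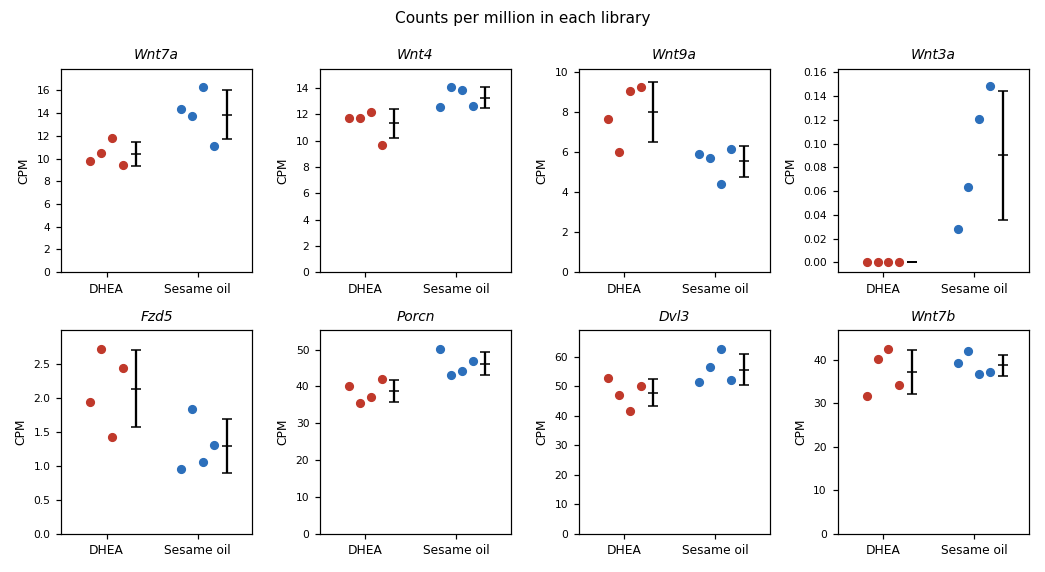
CPM in each library for the 7 members with an unadjusted p under 0.05 and for Wnt7b, the most abundant ligand. Points are libraries of the DHEA (red) and sesame oil (blue) groups, and the black marks are the mean ± SD of 4 libraries. Only the groups of Wnt4, Wnt3a and Porcn do not overlap, and Wnt3a lies below 0.15 CPM everywhere.

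Of the 10 Frizzled receptors, Fzd5 was higher and none was lower at an unadjusted p under 0.05. This share of 10% stands beside 9.31% of all tested genes and 13.1% of those whose mean count reached 10. Fzd5, known from eye development, was at 2.72, 1.43, 2.44 and 1.94 CPM in R3, R4, R7 and R11 and at 1.06, 1.30, 0.953 and 1.84 CPM in R5, R9, R10 and R16. R4 lay below R16, and the other libraries labelled DHEA lay above all those labelled sesame oil. The difference was 0.73 ± 0.29, or 65.8% higher, with an unadjusted p of 0.0207 and an adjusted p = 0.436 in edgeR. Without R3, R5 or R10 it was 0.59, 0.65 and 0.61, with an unadjusted p of 0.0713, 0.0561 and 0.0657. On the log2(FPKM + 0.1) scale limma gave 0.49 with an unadjusted p of 0.0628.

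Fzd3 was at 149, 153, 149 and 133 CPM in R3, R4, R7 and R11 and at 123, 125, 131 and 150 CPM in R5, R9, R10 and R16, with R16 among the libraries labelled DHEA. Its difference was 0.14 ± 0.07 with an unadjusted p of 0.0623. It was 0.20 without R16 (unadjusted p of 0.00998) and 0.18 without R11 (unadjusted p of 0.0195), robust moderation gave an unadjusted p of 0.0479, and with the GC trend removed it was 0.07 (unadjusted p of 0.298). The summed Frizzled FPKM was 27.6 to 32.4 under DHEA and 26.1 to 29.2 under sesame oil (p = 0.143, two-sided exact permutation test), and Fzd3 made up 34.2% to 42.2% of it. The other 8 receptors had log2 fold changes of -0.12 ± 0.47 (Fzd10) to 0.35 ± 0.18 (Fzd4, the receptor of norrin in vessels, unadjusted p of 0.0643).

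With all 8 libraries, none of the 4 co-receptors and alternative receptors had an unadjusted p under 0.05. Lrp6 was at 91.2, 71.9, 85.4 and 101 CPM in R3, R4, R7 and R11 and at 81.3, 80.0, 82.5 and 79.5 CPM in R5, R9, R10 and R16. The libraries labelled DHEA spread on both sides of the narrow sesame oil range, and the difference was 0.11 ± 0.08 with an unadjusted p of 0.184. It rested on single libraries: it was 0.19 without R4 (unadjusted p of 0.0121), 0.20 without R3 and R4 (unadjusted p of 0.0104) and 0.04 without R11 (unadjusted p of 0.648). Lrp5, Ror1 and Ror2 differed by 0.07 ± 0.10, 0.02 ± 0.17 and 0.09 ± 0.36.

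None of the 8 secreted antagonists had an unadjusted p under 0.05 either, and several varied more between libraries of a group than between the groups. Dkk3 was at 412, 397, 364 and 358 CPM in R3, R4, R7 and R11 and at 386, 364, 351 and 388 CPM in R5, R9, R10 and R16. Its groups overlapped, with a difference of 0.04 ± 0.06 and an unadjusted p of 0.54. Sfrp5, which binds Wnt ligands, was at 2.15, 0.168, 0.749 and 1.86 CPM in R3, R4, R7 and R11 and at 1.12, 0.267, 0.477 and 0.762 CPM in R5, R9, R10 and R16. It was highest in R3 and R11 and lowest in R4, all labelled DHEA, a 12.8-fold range, and the group difference of 0.91 ± 0.56 had an unadjusted p of 0.119. Sfrp5, and the genes set against marker lists next, were picked once their values were known.

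The choroid plexus, the secretory tissue beside the hippocampus, was present in unequal amounts. The summed CPM of 10 choroid plexus markers, with Ttr (transthyretin) the most abundant, was 4665, 99.5, 2309 and 4330 in R3, R4, R7 and R11 and 3251, 533, 2123 and 2371 in R5, R9, R10 and R16, a 46.9-fold range, with all 10 above 3 counts in every library. None of the 10 had an unadjusted p under 0.05 between the groups. Their median fitted log2 fold change was 0.45 and the difference in their mean log2 level was -0.08, so the measures differ in sign. Over the 8 libraries, Sfrp5 had the same rank order as the mean log2 level of these markers. Spearman's rho was 1 (p = 4.96e-05 by an exact permutation test, which cannot give less for 8 libraries, adjusted p = 0.0131) and Pearson's r was 0.86 (exact permutation test, p = 0.00186, adjusted p = 0.115). Without R4 and R9, the libraries farthest from the median, r was 0.995. Sfrp1 had r = 0.923 and rho = 0.905 (exact permutation test, p = 0.000471 and p = 0.00456, adjusted p = 0.0808 and 0.212), and r = 0.859 without R4 and R9. For Fzd4, r was 0.829 and rho 0.929 (exact permutation test, adjusted p = 0.168 and 0.196), and for Fzd7 they were 0.832 and 0.833 (exact permutation test, adjusted p = 0.164 and 0.312). Without R4 and R9, r was 0.933 for Fzd4 and 0.922 for Fzd7.

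The p-values of these relations were adjusted over 264 relations, of 44 members with 6 marker lists, and Sfrp5 with the choroid plexus was the only relation with an adjusted p under 0.05 by either coefficient. Since a coefficient is not given over the 4 libraries of a group, the relations were also computed with the group means removed from both measures and pairings exchanged within groups only, a check added after the data were seen. In this form r was 0.921 for Sfrp5, 0.932 for Sfrp1, 0.921 for Fzd4 and 0.854 for Fzd7 with the choroid plexus markers (exact permutation test, p = 0.00174, 0.00347, 0.00694 and 0.026, adjusted p = 0.306, 0.306, 0.317 and 0.404). The unadjusted p of this form was under 0.05 for 20 of the 264 relations and the adjusted p for 0.

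Among the next smallest p-values were relations with meningeal fibroblast markers, whose summed CPM was 220 to 552. Wnt6 had r = 0.954 and rho = 0.905 with them (exact permutation test, adjusted p = 0.0808 and 0.212) and r = 0.71 without R3 and R7. Fzd1 had r = 0.812 and rho = 0.81 (exact permutation test, adjusted p = 0.0808 and 0.359) and r = 0.716 without the same libraries. With the group means removed, r was 0.958 for Wnt6 and 0.824 for Fzd1 (exact permutation test, p = 0.0104 for each, adjusted p = 0.317). Wnt6 was at 1.43 CPM in R3 and 0.0555 CPM in R7, which held the most and the least of these markers. Some members also varied with the glial and endothelial lists, whose levels moved with the groups, and none of these relations passed the adjustment. Wnt16 had r = -0.894 and rho = -0.952 with the oligodendrocyte markers (exact permutation test, adjusted p = 0.115 and 0.151) and r = -0.758 without R4 and R16. With the group means removed, r was -0.761 (exact permutation test, p = 0.0156, adjusted p = 0.317). Wnt9a had r = 0.867 and rho = 0.881 with the astrocyte markers (exact permutation test, adjusted p = 0.168 and 0.212) and r = 0.695 without R4 and R5. With the group means removed, r was 0.66 (exact permutation test, p = 0.128, adjusted p = 0.628). Wnt8b, with a mean count of 11, had r = 0.862 and rho = 0.833 with the astrocyte markers (exact permutation test, adjusted p = 0.168 and 0.312). Its r was 0.602 without R4 and R5, and 0.869 with the group means removed (exact permutation test, p = 0.0156, adjusted p = 0.317). With the same markers, r was -0.799 for Dvl3 and -0.743 for Wnt7a (exact permutation test, adjusted p = 0.349 and 0.454), and rho was -0.643 and -0.738 (adjusted p = 0.635 and 0.504). Without R4 and R5, r was -0.279 for Dvl3 and -0.946 for Wnt7a, so that the relation of Dvl3 rests on those libraries. With the group means removed, r was -0.587 for Dvl3 and -0.316 for Wnt7a (exact permutation test, p = 0.186 and 0.467, adjusted p = 0.754 and 0.955). Dvl1 had r = -0.893 and rho = -0.857 with the endothelial markers (exact permutation test, adjusted p = 0.168 and 0.257) and r = -0.932 without R4 and R11. With the group means removed, r was -0.817 (exact permutation test, p = 0.0642, adjusted p = 0.581).

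**Figure D4:**
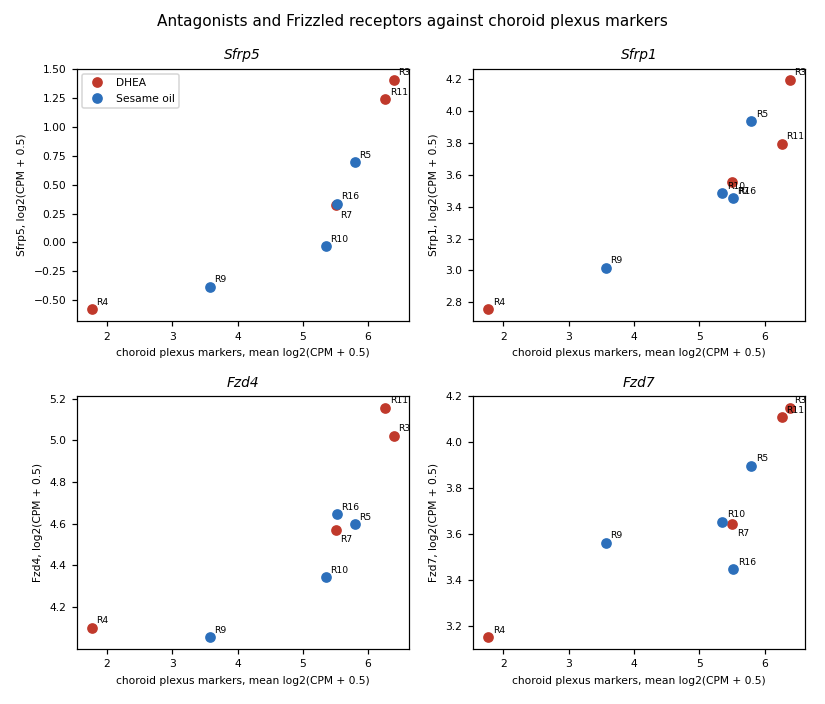
Sfrp5, Sfrp1, Fzd4 and Fzd7 against the choroid plexus markers. Each point is 1 library, the horizontal axis is the mean log2(CPM + 0.5) of the 10 markers and the vertical axis is the log2(CPM + 0.5) of the gene. R4 and R9 lie lowest on the horizontal axis and R3 and R11 highest, and libraries of both groups are interspersed along the rise.

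Of the 6 cytoplasmic transducers, Dvl3 was lower at an unadjusted p under 0.05 (16.7%, beside 13.1% of genes whose mean count reached 10). Dvl3, a Dishevelled protein that passes the signal on from Frizzled, was at 46.8, 41.7, 50.1 and 52.7 CPM in R3, R4, R7 and R11 and at 62.6, 52.0, 51.4 and 56.4 CPM in R5, R9, R10 and R16. R3 and R4 were lowest and R5 was highest, and R11 lay among the libraries labelled sesame oil. The difference was -0.22 ± 0.08, or 14.0% lower, with an unadjusted p of 0.0182 and an adjusted p = 0.421 in edgeR. It was -0.16 without R4, -0.15 without R5 and -0.12 without both R3 and R4, with an unadjusted p of 0.0547, 0.0934 and 0.167. Dvl1 and Dvl2 differed by -0.16 ± 0.08 and -0.20 ± 0.13, with unadjusted p of 0.0504 and 0.132. Both were lowest in R3 and R4, at 53.7 and 55.3 CPM for Dvl1 and 10.3 and 10.1 CPM for Dvl2, while the other 6 libraries held 62.0 to 69.7 and 13.6 to 15.0 CPM.

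Ctnnb1 was at 511, 515, 440 and 435 CPM in R3, R4, R7 and R11 and at 446, 449, 449 and 456 CPM in R5, R9, R10 and R16. R3 and R4 were high, and R7 and R11 lay below every library labelled sesame oil. The difference was 0.08 ± 0.07 with an unadjusted p of 0.246, and its sign turned without R3 and R4. Axin1, a scaffold of the destruction complex, differed by 0.02 ± 0.08, and Axin2, a scaffold that is also a target of the pathway, by -0.10 ± 0.08.

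Among 66 further genes of the pathway, 6 (9.09%) had an unadjusted p under 0.05, all lower in the libraries labelled DHEA, and 0 had an adjusted p under 0.05 in edgeR. The share is near the 9.31% of all tested genes. It is below the 13.1% of genes whose mean count reached 10, as it did for 62 of the 66. The number was 3 genes without R5 and 10 with RLE normalization, all lower. With some libraries left out, genes that were higher also passed, 2 of 8 without R3 and R4, and 1 each without R4 (of 6), R7 (of 9), R11 (of 7) or both R9 and R11 (of 7). The 9 destruction complex genes held 3 of them, Btrc, Csnk1d and Apc2, and the groups did not overlap in 4 of the 9, these 3 and Gsk3a, beside 5.04% of all tested genes. With the GC trend removed they did not overlap in 3 of the 9, beside 4.65% of all tested genes. Of the 9 genes, 5 had a log2 fold change below 0 and 4 above it before that removal, with a median of -0.05. All 9 had a mean count of at least 10, while the shares of all tested genes include genes with fewer counts. Btrc, the ligase subunit that marks beta-catenin for breakdown, was at 117, 111, 109 and 107 CPM in R3, R4, R7 and R11 and at 132, 118, 120 and 132 CPM in R5, R9, R10 and R16, a difference of -0.18 ± 0.06 with an unadjusted p of 0.00897. With the GC trend removed it was -0.25 (unadjusted p of 0.00065). Csnk1d, a casein kinase, was at 125 to 135 CPM against 141 to 149 CPM, a difference of -0.15 ± 0.06 with an unadjusted p of 0.0158, and -0.13 with the GC trend removed (unadjusted p of 0.0273). Apc2, a scaffold of the complex in neurons, was at 96.6 to 103 CPM against 109 to 112 CPM, a difference of -0.15 ± 0.06 with an unadjusted p of 0.0166. After removal of the GC trend the difference was -0.10 (unadjusted p of 0.0823), and the groups still did not overlap. Gsk3a, a kinase and the most abundant of the list in FPKM, was at 165 to 173 CPM against 176 to 191 CPM, with a difference of -0.11 ± 0.06 and an unadjusted p of 0.0602. With the GC trend removed its groups overlapped and the difference was -0.07 (unadjusted p of 0.254).

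The remaining 3 of the 6 lay in other lists. Chd8, a chromatin remodeller and the only 1 of 12 nuclear effectors, differed by -0.14 ± 0.06 with an unadjusted p of 0.0371. Of 14 planar cell polarity and alternative receptor genes, Celsr3 and Scrib passed. Celsr3, a cadherin of axon guidance, was at 54.8, 54.2, 115 and 109 CPM in R3, R4, R7 and R11 and at 119, 121, 120 and 109 CPM in R5, R9, R10 and R16. R3 and R4 lay far below the other 6 libraries, and the difference of -0.49 ± 0.18 had an unadjusted p of 0.0142. Scrib, a polarity scaffold, differed by -0.19 ± 0.09 with an unadjusted p of 0.0438, which was 0.116 with the GC trend removed. None of the 14 target genes of beta-catenin had an unadjusted p under 0.05, with Ccnd1 (cyclin D1), the most abundant, at -0.03 ± 0.07. Likewise 0 of 9 genes of the R-spondin module (Lgr4 the most abundant, -0.04 ± 0.07), 0 of 12 extracellular regulators (Mesd, 0.00 ± 0.08) and 0 of 4 vessel co-receptors (Tspan12, 0.06 ± 0.09) had one. Cby1, the most abundant nuclear effector, and Camk2a, the most abundant gene of the polarity list, differed by 0.13 ± 0.09 and 0.02 ± 0.06.

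**Figure D5:**
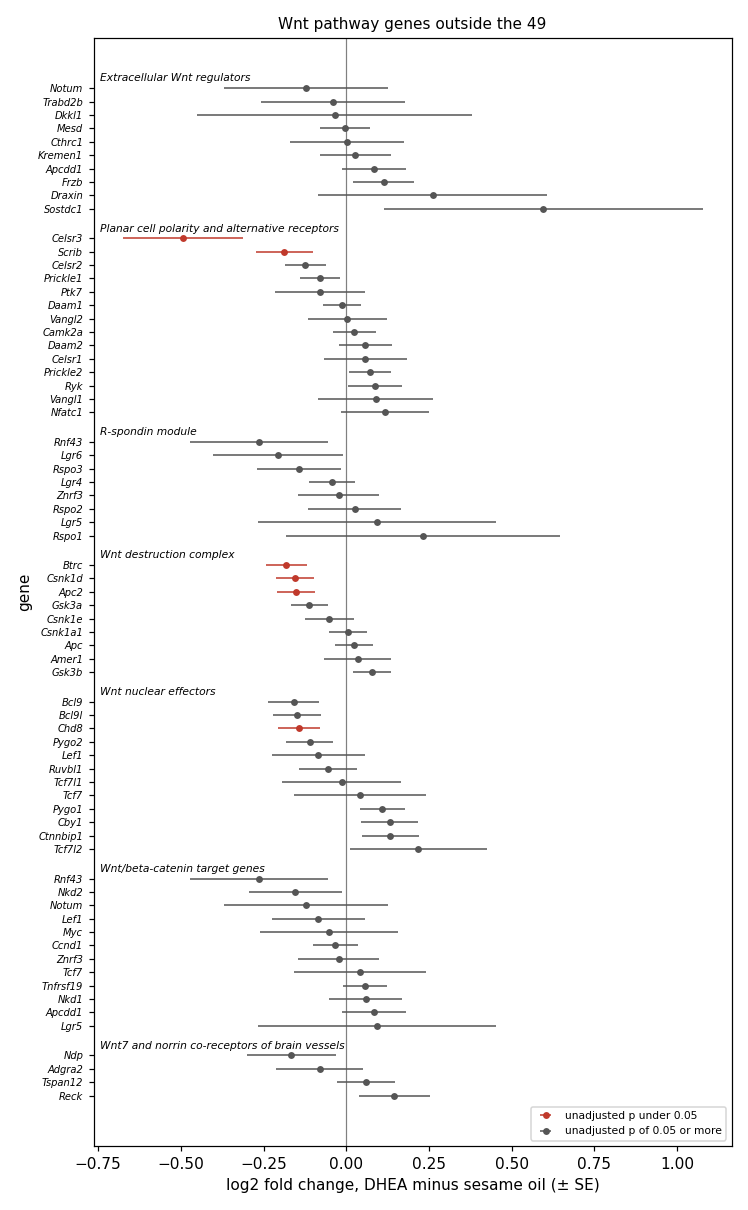
Difference between the groups for 62 further Wnt pathway genes whose mean count reached 10, by list, with genes of 2 lists drawn in both. The horizontal axis is the log2 fold change of edgeR, DHEA minus sesame oil, and bars are ± SE. All 6 genes in red (unadjusted p under 0.05) lie to the left of 0, and Gsk3a, next to 3 of them, has an unadjusted p of 0.0602.

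Markers of other cells moved with the groups and are given here beside the members. The most abundant gene of each list by FPKM is named here or above, except that of the oligodendrocyte list. Beside the counts that follow, 9.31% of all tested genes had an unadjusted p under 0.05, 4.82% higher and 4.49% lower. It was 13.1% among genes whose mean count reached 10. All 10 oligodendrocyte markers were higher in the libraries labelled DHEA at an unadjusted p under 0.05, with a summed CPM of 6754 to 8620 against 4606 to 6546. Of 7 oligodendrocyte precursor markers 2 were higher, with a summed CPM of 229 to 244 against 202 to 219 and Gpr17 the most abundant. Of 10 astrocyte markers 7 were higher, with a summed CPM of 6174 to 7345 against 5450 to 6270 and Slc1a2 the most abundant. Of 10 endothelial markers 5 were higher, with 399 to 483 against 381 to 411 and Slc2a1 the most abundant. Another 2 of the endothelial markers had a log2 fold change below 0, without an unadjusted p under 0.05. None of the interneuron markers (0 of 8), of the ventral hippocampus markers (0 of 6) or of the meningeal fibroblast markers (0 of 10) had an unadjusted p under 0.05. Sst, Dcn and Igf2 were the most abundant of these lists. Of 10 excitatory neuron markers 2 were higher, but 7 of the 10 had a log2 fold change below 0, with a median of -0.06. Of the 6 ventral hippocampus markers, 5 had a log2 fold change below 0. Among 10 thalamic markers, with Calb2 the most abundant, 1 was higher and 1 lower. Of 7 anterior pituitary markers 3 were lower, with a summed CPM of 1.85 to 3.37 against 3.53 to 30.1, and Cga and Pitx1 at 3 counts or fewer in every library. The upper value is that of R10, and the other 3 labelled sesame oil held 3.53 to 6.91 CPM. Prl led this list on average through R10, which held 16.6 CPM of it, and was the highest gene of the list in R9 and R10 only. Mitochondrial genes held 7.29% to 9.34% of the counts under DHEA and 6.37% to 7.23% under sesame oil (p = 0.0286, two-sided exact permutation test). With every library thinned to the smallest total, the unadjusted p was 0.00479 for Wnt7a, 0.0194 for Wnt4, 0.00238 for Wnt9a, 0.0194 for Fzd5, 0.00448 for Porcn and 0.0177 for Dvl3. The part of cell composition and mitochondrial share in these differences was not tested.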

How the data were processed

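Total RNA of 8 hippocampal samples was sequenced as paired-end reads. Per the methods, the authors checked reads with FastQC, removed low-quality reads, aligned the rest with HISAT2 and counted them per gene with HTSeq-count. The submitters' processing notes name fastp, HISAT2, HTSeq and GRCm39. The deposited counts are raw counts per gene. The deposited FPKM are these counts scaled by library total and by 1 length per gene (25234 of 25234 genes within 0.1%), and they were used for levels between genes. The study's own fold changes and p-values were not used.

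edgeR 4.0.16 in R 4.3.3 (TMM, quasi-likelihood test, prior count 0.125) was fitted to 27612 of 29442 genes with at least 1 count, with Benjamini-Hochberg adjustment over all of them. CPM are TMM-normalized, and an SE is the log2 fold change divided by the square root of F. Exact permutation tests used 70 allocations of libraries, and correlations 40320 pairings, or 576 within groups with the group means removed. Replicate pairs of a group differed by 7.93 to 57.1 chi-square units per gene, above sampling noise. The labels name no separate animal for each library, so p-values measure the spread between these libraries. Counts with 3 as the floor cover only the counting error of the group at 0 counts, not that of the other group. GC content came from GENCODE vM21 transcripts (15594 of the 16813 genes whose mean count reached 10), and its trend was removed by lowess (span 0.3).

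Alternatives were DESeq2 1.42.0, RLE normalization, filters of at least 10 counts and filterByExpr, robust moderation, a prior count of 1, limma 3.58.1 on log2(FPKM + 1) and log2(FPKM + 0.1), thinning to the smallest total, removal of the GC trend and leaving out libraries. Code was tested on simulated data. Members and lists were chosen with earlier results of these data known. Values per library are given for members with an unadjusted p under 0.05 or groups without overlap, for Wnt3a and for the most abundant member of each role. From other pathway lists, genes with an unadjusted p under 0.05 and the most abundant were named, and from marker lists the most abundant and those at 3 counts or fewer everywhere. Other named genes were picked once their values were known. The most abundant gene of 1 marker list is not reported here.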

Additional observations from a re-analysis of the deposited data

Results flagged for a closer look

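In 4 of 88 groups of 4 libraries, 1 library of a member lay far from the other 3 by Dixon's ratio of gap to range, and chance alone gives about 4.4. Wnt5b was low in R7, labelled DHEA, at 0.777 CPM beside 1.97 to 2.10 CPM in the other 3 (ratio 0.9). Wnt5a was low in the same library at 11.2 CPM beside 15.0 to 15.4 CPM (ratio 0.898). Fzd1 was low there too, at 9.04 CPM beside 11.5 to 12.0 CPM (ratio 0.854). R7 also held the least of the meningeal fibroblast markers, 220 summed CPM, and the part of these cells in the 3 values was not tested. Axin1 was high in R9, labelled sesame oil, at 24.3 CPM beside 22.1 to 22.3 CPM (ratio 0.904).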

How the results depend on the processing

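The adjusted p stayed at 0.05 or more for all members tested in each of the 20 alternatives run, except that DESeq2 gave none for 23 members. The number of members with an unadjusted p under 0.05 was 5 to 12 when 1 library was left out. This was 10.4% to 25%, beside 6.53% to 13.4% of all genes, those with few counts included. In the other alternatives the number was within 1.5 times 7. Members past the thresholds of the study numbered 0 with filterByExpr and 0 with limma on log2(FPKM + 1) or log2(FPKM + 0.1), where Wnt3a was filtered out or its difference shrank by construction, 2 without R9 and R11 (the libraries with later sample numbers), and 1 to 2 with 1 library left out. Members whose groups do not overlap numbered 10 (20.8%, beside 13.8% of all genes) without R9 and R11, 13 (27.1%, beside 15.9%) without R3 and R4 (added after the data were seen), and 3 to 7 with 1 library left out (6.25% to 14.6%, beside 7.12% to 10.7%), since fewer libraries overlap less. Of the further pathway genes, 10 had an unadjusted p under 0.05 with RLE normalization and 10 with limma on log2(FPKM + 0.1), and 3 to 9 with 1 library left out, fewest without R5, and the cause was not tested. The median log2 fold change of the members stayed above 0, at 0.01 to 0.12. Small differences turned sign: Ctnnb1 to -0.0466 and Dkk3 to -0.0508 without R3 and R4, and Wnt7b, at -0.14 to 0.00646 with 1 library left out, without R11. No paired analysis was possible because the groups share no replicate numbers. Depth limits Wnt1, Wnt3a, Wnt9b and Dkk1, with mean counts under 10.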
